A study of Mus musculus with 4 samples.

Results

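Microtubules are built from heterodimers of alpha and beta tubulin, and the mouse genome encodes each subunit in several genes called isotypes. The 10 isotype genes described here, 4 alpha (Tuba1a, Tuba1b, Tuba1c and Tuba4a) and 6 beta (Tubb2a, Tubb2b, Tubb3, Tubb4b, Tubb5 and Tubb6), were taken by their symbols from a table of 16051 genes. They were chosen by their estimated counts and FPKM in this same comparison, with their response to risperidone already known. Their own levels, fold changes and shares are therefore given as a description, without a p-value. In DMSO the summed FPKM of these 6 beta genes was 65.4% ± 0.268 Tubb5 (SD, n = 2) and 24.0% ± 0.439 Tubb4b. In risperidone it was 85.1% ± 1.19 Tubb5 and 7.91% ± 0.771 Tubb4b.

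The data are mRNA sequencing of 3T3-L1 cells, a mouse embryonic fibroblast line that can be differentiated into adipocytes, to examine how risperidone, a second-generation antipsychotic, acts on fat cells. Differentiated cells were treated with DMSO, the vehicle, or with 100 μM risperidone for 48 h, and each treatment has 2 libraries. The RNA of 3 cultures was combined for every library, and nothing in the values gives the spread between single cultures. The labels call the control untreated, give embryo tissue of the NIH SWISS strain and mention RNA from retinas, whereas the methods of the study give DMSO as the control and describe no retina.

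The cells were checked against marker genes. Of 10 adipocyte markers, 5 (Adipoq, Plin1, Cebpa, Cidec and Retn) were below 1 FPKM in every library, while the summed FPKM of the list was 440 and 497 in DMSO and 331 and 340 in risperidone. The summed FPKM of 8 preadipocyte and fibroblast markers was 1182 and 1163 in DMSO and 1519 and 1489 in risperidone. All measured neuron markers (6 genes) and retina markers (6 genes) were below 1 FPKM in every library. Risperidone replicate 2 stood apart in kidney markers, with a summed FPKM of 242 against 4.42 to 6.89 in the other libraries, so the main fold changes, shares and totals are also given without it. The libraries held 15883712 to 16374119 estimated counts, and the floor of 3 counts corresponded to 0.183 to 0.189 CPM. In bulk RNA, fewer cells of a type and less RNA per cell cannot be told apart.

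Tubulin isotypes are closely related in their core and differ mainly in a short acidic tail at the C-terminal end, where many of the modifying enzymes act and which lies on the outer surface of the microtubule. Newly made subunits are folded by the chaperones prefoldin and CCT and are paired by the tubulin cofactors. Cells adjust their tubulin mRNA to the amount of free tubulin: TTC5 recognises the first residues of a nascent tubulin chain on the ribosome and, through SCAPER, brings in the CCR4-NOT deadenylase, which leads to decay of the mRNA. In fat cell differentiation, the fibroblast-like cytoskeleton is rearranged as the cells round up around lipid droplets.

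The sequences that distinguish the isotypes are given first, because they set what short reads can tell apart. In GRCm38, Tuba1a lies at chr15:98949837-98953703 and Tuba1b at chr15:98931425-98934565, both on the minus strand, and Tuba1c at chr15:99029891-99038110 on the plus strand. Tubb5 lies at chr17:35833921-35838306 and Tubb4b at chr2:25222160-25224702, both on the minus strand. Each of the 10 isotypes has 4 exons in the transcript used, all of which carry coding sequence.

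Over the whole coding sequence, Tuba1a and Tuba1b were 98.3% identical, Tuba1b and Tuba1c 97.9%, and Tuba1a and Tuba1c 97.1%. The beta isotypes were further apart. The last 60 coding bases, which encode the tail and end with the stop codon, are shown for the 2 beta members whose levels moved most and for Tubb4a, a beta isotype outside the 10 that is described with the related genes. Capitals mark bases that differ from Tubb5 in the alignment.
Tubb5: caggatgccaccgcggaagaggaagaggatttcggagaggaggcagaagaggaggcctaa
Tubb4b: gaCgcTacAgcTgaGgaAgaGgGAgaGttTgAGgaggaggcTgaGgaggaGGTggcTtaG
Tubb4a: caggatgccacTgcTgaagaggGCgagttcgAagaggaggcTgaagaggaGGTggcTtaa

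The marked bases numbered 20 in the Tubb4b tail and 10 in that of Tubb4a. They include inserted bases, but bases of Tubb5 that are absent from Tubb4a are neither marked nor counted. The coding sequences of Tubb5 and Tubb4b were 82.2% identical. The first 4 codons, which encode the residues that TTC5 recognises, are shown in capitals for comparison across the family. Tuba1a, Tuba1b and Tuba1c begin alike.
Tuba1a, Tuba1b and Tuba1c: ATGCGTGAGTGC
Tuba4a: ATGCGCGAGTGC
Tubb5: ATGAGGGAAATC
Tubb4b and Tubb3: ATGAGGGAGATC
Tubb2a: ATGCGCGAGATC
Tubb2b: ATGCGAGAGATC

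These likenesses bear on how firmly each gene was counted. Of the 100-base windows of the transcript, 65.8% in Tuba1a, 73.0% in Tuba1b and 53.4% in Tuba1c also occurred in transcripts of other genes, mostly each other and alpha tubulin pseudogenes. For Tubb4b it was 30.6%, mostly shared with its pseudogenes Tubb4b-ps1 and Tubb4b-ps2, and for Tuba4a 46.7%, all shared with the overlapping gene Stk16 on either strand. Tubb3, Tubb5 and Tubb6 shared no window of 100 bases. The counting tool divides reads that match several genes by an estimate, so the split among Tuba1a, Tuba1b and Tuba1c is uncertain. The counts of 4 members (Tubb3, Tubb4b, Tubb5 and Tubb6) were whole in every library and those of the other 6 were fractional. The read length is not given in the sources used here.

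Levels are given in FPKM, which are divided by transcript length and library depth and so allow genes of different length to be compared. In DMSO, the order of the mean FPKM was Tuba1b, Tuba1a, Tubb5, Tuba1c, Tubb4b and Tubb6, and no pair of neighbours in this order overlapped between libraries. In risperidone, the order was Tuba1b, Tubb5, Tuba1c, Tuba1a, Tubb4b and Tubb6, and Tuba1b and Tubb5 overlapped. Of the 6 members with a mean of at least 1 FPKM, which entered the fit over 10243 genes, 1 was higher in both risperidone libraries than in both DMSO libraries, 3 were lower and 2 overlapped. Over all genes tested, 82.2% did not overlap between treatments, 32.4% being higher and 49.8% lower in FPKM. In the edgeR quasi-likelihood fit, 3 of the 6 had an adjusted p under 0.05, 1 higher and 2 lower, beside 64.3% of all genes tested (32.1% higher and 32.2% lower).

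**Figure D1:**
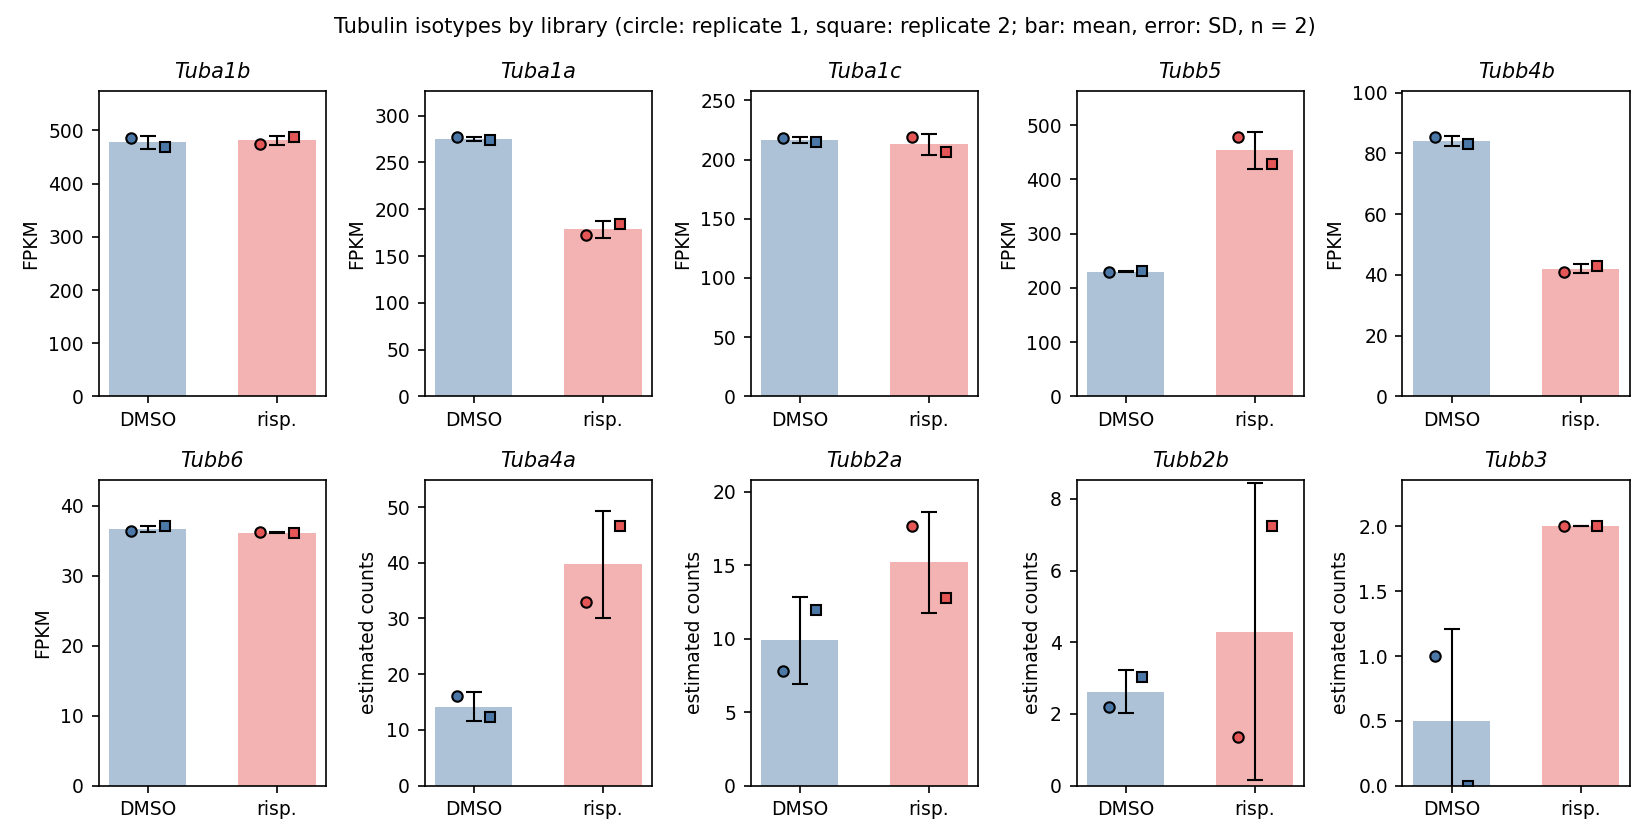
Each panel plots 1 isotype, with the level in FPKM on the vertical axis for the 6 more abundant genes and the estimated count for the 4 rare ones; points are the libraries of DMSO (blue) and risperidone (red), bars the mean and error bars the SD (n = 2). Tubb5 was at 429 and 478 FPKM in risperidone against 230 and 231 in DMSO, while Tubb4b and Tuba1a were lower in both risperidone libraries.

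Tubb5, the main beta isotype of most dividing and non-neuronal cells, had 229.57 and 230.59 FPKM in the DMSO libraries and 477.86 and 429.1 in the risperidone libraries. Both risperidone libraries were far above both DMSO libraries, from a mean of 230 ± 0.721 to 453 ± 34.5 FPKM (SD, n = 2), a ratio of 1.97. The log2 fold change was 1.08 (SE 0.0595) in the fit. It rested on 9434 and 9200 counts in DMSO and 19531 and 17268 in risperidone. Without risperidone replicate 2 it was 1.16. Among all genes of the table, Tubb5 ranked 275 and 278 by FPKM in DMSO and 157 and 165 in risperidone, where Tuba1b ranked 158 and 152.

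Tubb4b, a widely expressed beta isotype that is also prominent in cilia, had 85.35 and 83.05 FPKM in DMSO and 40.97 and 43.07 in risperidone. Both risperidone libraries were below both DMSO libraries, with a mean of 84.2 ± 1.63 FPKM in DMSO and 42.0 ± 1.48 in risperidone. The log2 fold change was -0.90 (SE 0.0544). Without risperidone replicate 2 the log2 fold change was -0.94. The counts were 2047 and 1935 in DMSO and 978 and 1014 in risperidone. Its change was opposite to that of Tubb5, and the gain in Tubb5 of 223 FPKM was larger than the loss in Tubb4b, a difference of -42.2 FPKM.

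Tubb6, a beta isotype of non-neuronal tissues, had 36.44 and 37.05 FPKM in DMSO and 36.24 and 36.1 in risperidone. The libraries did not overlap, but the means of 36.7 ± 0.431 and 36.2 ± 0.0990 FPKM differed by -0.575 FPKM. The log2 fold change was 0.07 (SE 0.0617) in the count fit, 0.083 without risperidone replicate 2 and -0.02 on the FPKM scale, on which the values of all 6 isotypes tested lay about 0.1 lower than in the count fit. Relative to the median of all genes tested it was 0.060 on the TPM scale. Tubb6 lies on chromosome 18 and its sequence is not printed here.

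Tuba1a, the alpha isotype best known from developing neurons, had 277.03 and 273.73 FPKM in DMSO and 172.29 and 184.49 in risperidone. Its mean went from 275 ± 2.33 to 178 ± 8.63 FPKM, with no overlap between treatments. The log2 fold change was -0.53 (SE 0.0494) in the fit, and -0.57 without risperidone replicate 2. The difference of means was -97.0 FPKM, the largest fall in FPKM among the 10 isotypes. Since 65.8% of its 100-base windows occur in other transcripts, this value depends on how the counting tool divided reads.

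Tuba1b, a broadly expressed alpha isotype, had 485.87 and 469.06 FPKM in DMSO and 475.21 and 487.45 in risperidone. The treatments overlapped, at means of 477 ± 11.9 and 481 ± 8.65 FPKM, and the log2 fold change was 0.11 (SE 0.0481), or 0.098 without risperidone replicate 2. Tuba1c, also broadly expressed, had 218.52 and 214.56 FPKM in DMSO and 218.91 and 206.77 in risperidone. These overlapped as well, at means of 217 ± 2.80 and 213 ± 8.58 FPKM, with a log2 fold change of 0.07 (SE 0.04998), or 0.12 without that library. On the FPKM scale the log2 fold change of Tuba1c was -0.03, and on the TPM scale both were below 0, at -0.13 for Tuba1b and -0.17 for Tuba1c, with a median over all genes tested of -0.22.

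The 4 remaining isotypes were near the limit of detection. Tuba4a, an alpha isotype encoded without the terminal tyrosine, had 16.02 and 12.34 counts in DMSO and 32.92 and 46.52 in risperidone, at most 1.47 FPKM. Its libraries did not overlap, and without the filter its log2 fold change was 1.60 (SE 0.337), with 46.7% of its windows shared with Stk16. Tubb2a had 7.81 and 11.96 counts in DMSO and 17.64 and 12.77 in risperidone, and a log2 fold change of 0.71 (SE 0.475) without the filter. The treatments did not overlap, but by less than 1 count between the nearest libraries. Tubb2b had 2.19, 3.04, 1.36 and 7.23 counts in the 2 DMSO and then the 2 risperidone libraries, which overlapped. Tubb3, used as a marker of neurons, had 1 and 0 counts in DMSO and 2 in each risperidone library, all below 3 counts, so no fold is given.

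The isotype mix was taken as the share of each member in the summed FPKM of its class. Among beta isotypes, the share of Tubb5 was 65.3% and 65.6% in the DMSO libraries and 86.0% and 84.3% in the risperidone libraries, a difference of 19.7 percentage points. That of Tubb4b was 24.3% and 23.6% in DMSO and 7.37% and 8.46% in risperidone, a difference of -16.0 percentage points. Tubb6 went from 10.5% ± 0.133 to 6.80% ± 0.404, a difference of -3.65 percentage points at nearly the same FPKM. A share falls when another member of its class gains, so these differences are not independent of each other. Tubb2a, Tubb2b and Tubb3 together stayed a trace, with Tubb2a at 0.118% ± 0.0383 and 0.120% ± 0.0191. Without risperidone replicate 2, the share of Tubb5 differed by 20.5 and that of Tubb4b by -16.6 percentage points.

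Among alpha isotypes the mix moved less. Tuba1a took 28.21% and 28.58% in DMSO and 19.86% and 20.96% in risperidone, a difference of -7.99 percentage points, or -8.53 without risperidone replicate 2. Tuba1b took 49.2% ± 0.358 in DMSO and 55.1% ± 0.422 in risperidone, a difference of 5.85 percentage points, with its own FPKM overlapping between treatments. The share of Tuba1c was 22.3% ± 0.105 and 24.4% ± 1.23. Tuba4a took 0.0463% ± 0.00647 and 0.142% ± 0.0349.

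**Figure D2:**
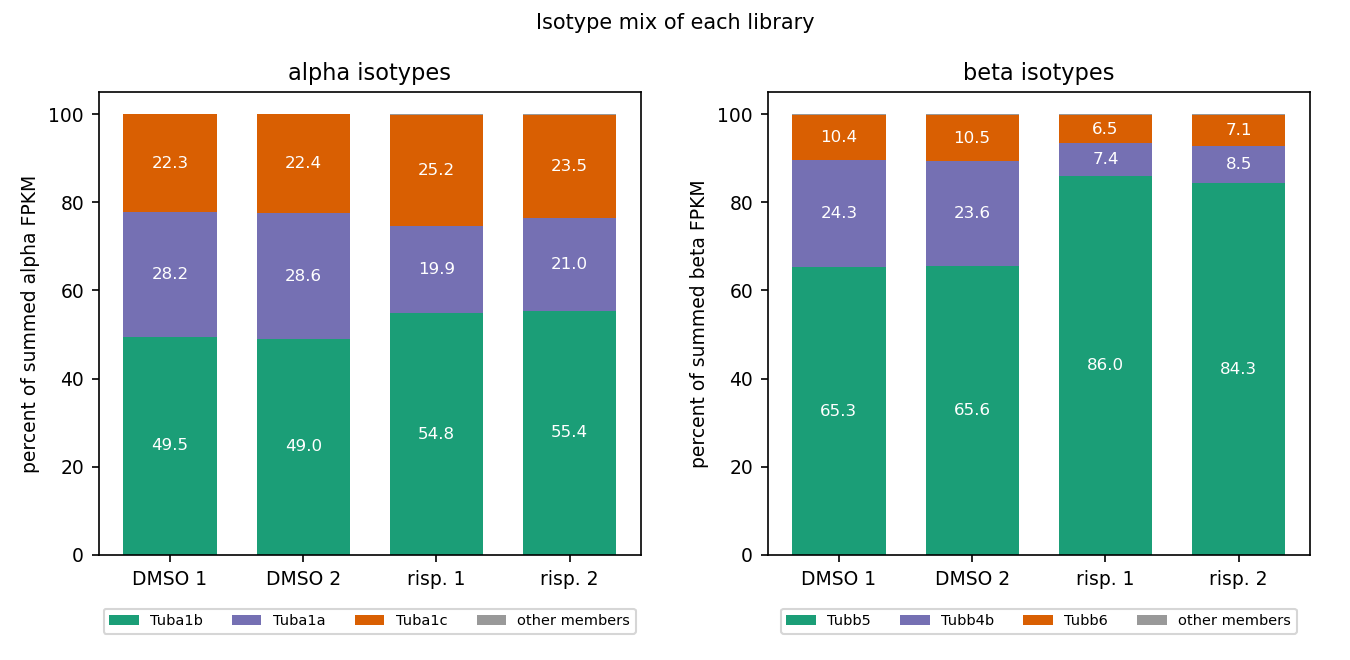
Stacked bars give, for each library, the share of each isotype in the summed FPKM of the 4 alpha members (left) and of the 6 beta members (right), in percent; members without a colour of their own are in grey. The Tubb5 segment filled 84.3% and 86.0% of the beta bars in risperidone against 65.3% and 65.6% in DMSO.

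In FPKM, the class totals moved in opposite directions. The summed FPKM of the alpha members was 982 and 958 in DMSO and 867 and 880 in risperidone, and that of the beta members was 351.79 and 351.31 in DMSO and 555.94 and 509.14 in risperidone. Neither total overlapped between treatments. The alpha total differed by -96.0 FPKM, close to the difference in Tuba1a, and the beta total by 181 FPKM. The ratio of alpha to beta mRNA was 2.79 and 2.73 in DMSO and 1.56 and 1.73 in risperidone. As log2 ratios of risperidone to DMSO in FPKM, the alpha total was -0.15, the beta total 0.60 and the alpha to beta ratio -0.75. Without risperidone replicate 2 they were -0.16, 0.66 and -0.82. With summed TPM they were -0.29, 0.45 and -0.75, on a scale where the median of all genes tested was -0.22. The size of the alpha fall therefore depends on the scale, and the alpha total in TPM was close to that median. The alpha and beta total together was 1321 ± 17.4 FPKM in DMSO and 1406 ± 24.1 in risperidone. On the TPM scale, it was lower in risperidone, at 2725 ± 53.6 and 2625 ± 26.5. Its log2 ratio was 0.09 in FPKM and -0.054 in TPM, the latter above the TPM median of all genes tested. Its sign thus depends on the scale, so no direction is given for it.

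The scale matters because the 3 deposited units do not share a zero point. The median log2 fold change over all genes tested was near 0 in the count fit but -0.22 on the TPM scale, where limma called 1536 genes higher (15.0%) and 5292 lower (51.7%), against 3287 and 3303 in the count fit. Relative to that median, the TPM log2 fold changes were 1.06 for Tubb5, -0.91 for Tubb4b and -0.54 for Tuba1a, and 0.092 for Tuba1b, 0.055 for Tuba1c and 0.060 for Tubb6. Tubb5 was higher and Tubb4b and Tuba1a were lower under every alternative tried.

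**Figure D3:**
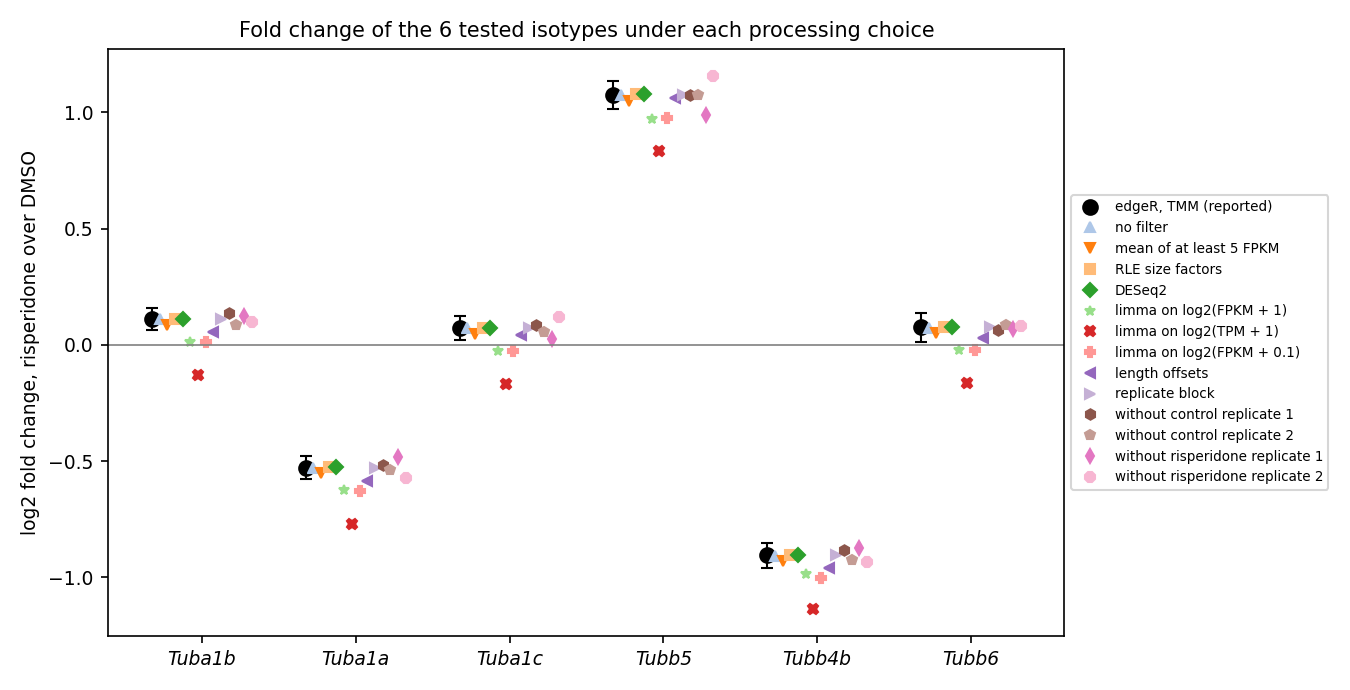
Log2 fold change (risperidone over DMSO) of the 6 tested isotypes under each processing choice; black circles are the reported edgeR values with their SE, other symbols the alternatives named in the key. Tubb5 stayed above 0 and Tubb4b and Tuba1a below 0 under all of them, while Tuba1b, Tuba1c and Tubb6 lay close to 0 and crossed it on the TPM scale, where the median of all genes tested was -0.22 (Tuba1c and Tubb6 also on the FPKM scale).

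The promoters of the 2 beta isotypes that moved in opposite directions are shown for comparison, as the 250 bases before the RefSeq start in GRCm38.p6, read along the gene. Capitals mark CCAAT and GGGCGG on either strand, which do not overlap each other. The Tubb5 window is chr17:35838302-35838551 and that of Tubb4b is chr2:25224703-25224952, both on the minus strand.
Tubb5: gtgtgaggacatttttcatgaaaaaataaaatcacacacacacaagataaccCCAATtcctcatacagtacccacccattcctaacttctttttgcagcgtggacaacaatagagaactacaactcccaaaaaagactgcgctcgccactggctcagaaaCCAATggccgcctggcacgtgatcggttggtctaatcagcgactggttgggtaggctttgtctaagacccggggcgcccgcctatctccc
Tubb4b: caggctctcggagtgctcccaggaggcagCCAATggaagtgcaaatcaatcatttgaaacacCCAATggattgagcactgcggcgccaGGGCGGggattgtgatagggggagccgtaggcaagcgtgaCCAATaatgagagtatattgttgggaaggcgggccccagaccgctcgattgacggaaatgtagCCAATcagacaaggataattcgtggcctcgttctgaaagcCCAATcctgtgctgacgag

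The Tubb4b window held 5 copies of CCAAT and 1 of GGGCGG, and the Tubb5 window 2 copies of CCAAT and none of GGGCGG. Of 32851 RefSeq promoter windows of the same length, 33.8% held CCAAT and 32.7% held GGGCGG. The Tubb5 window also held 1 copy of CACGTG, which 6.02% of the windows held. These are matches of letters and do not show that a factor was bound.

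Genes that make, fold, modify or use tubulin were then tested in the same edgeR fit, from lists written from general knowledge. Among tubulins other than the 10 isotypes, 6 of 10 were in the table and 3 were tested, of which 1 rose and 1 fell. Tubb4a, a beta isotype best known from neurons and oligodendrocytes, had 7.94 and 7.84 FPKM in DMSO and 14.58 and 13.79 in risperidone. It rose with a log2 fold change of 0.94 (SE 0.0765, edgeR adjusted p = 1.7e-06). If included, Tubb4a would make up 2.20% of the beta total in DMSO and 2.60% in risperidone. The share of Tubb5 would then be 64.0% in DMSO and 82.9% in risperidone. Tubd1, the delta tubulin of centrioles, had 4.51 and 4.47 FPKM in DMSO and 2.70 and 2.08 in risperidone, and fell with a log2 fold change of -0.81 (SE 0.183, edgeR adjusted p = 0.00255). Tubg1, the gamma tubulin from which microtubules are nucleated, had a log2 fold change of 0.12 and did not pass the test (edgeR adjusted p = 0.158). Without risperidone replicate 2 it passed, with a log2 fold change of 0.17 (edgeR adjusted p = 0.0458). Tuba8, Tubg2 and Tube1 were below the filter.

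All 23 genes of tubulin folding and assembly were tested, and 14 rose, 2 fell and 7 did not pass the test, with a median log2 fold change of 0.20. On the TPM scale 10 were called higher and 7 lower, beside 15.0% and 51.7% of all genes tested. The chaperonin subunit Cct2 had 206.58 and 206.51 FPKM in DMSO and 345.45 and 322.71 in risperidone (log2 fold change 0.79, SE 0.0521, edgeR adjusted p = 3.9e-07). The prefoldin subunit Pfdn5 had 274.74 and 263.67 FPKM in DMSO and 435.5 and 410.11 in risperidone (log2 fold change 0.76). These chaperones have clients other than tubulin, actin among them. The 2 genes that fell act after folding, Tbcd, a cofactor that holds beta tubulin (log2 fold change -0.28), and Tbcel, a relative of cofactor E that can take tubulin dimers apart (log2 fold change -0.71, SE 0.0737, edgeR adjusted p = 1.07e-05).

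Of 13 genes of tubulin autoregulation, 1 rose, 3 fell and 9 did not pass the test, and the median was -0.02. Ttc5, the factor that reads the nascent chain, had 13.81 and 14.87 FPKM in DMSO and 12.80 and 11.83 in risperidone, and its log2 fold change of -0.13 did not pass the test (edgeR adjusted p = 0.16). The scaffold subunit Cnot1 fell (log2 fold change -0.25), as did Cnot6, a deadenylase of the CCR4-NOT complex (log2 fold change -0.52), and Cnot9 (-0.35). Cnot10 rose, with a log2 fold change of 0.24. On the TPM scale, where limma called 51.7% of all genes tested lower and 15.0% higher, 10 of the 13 were lower and none higher (0 at an unadjusted p under 0.05).

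Enzymes that modify the tubulin tails and lattice went both ways. Of 26 genes listed, 15 were tested, and 2 rose, 5 fell and 8 did not pass the test, with a median of -0.02. DESeq2 called 2 higher and 3 lower. On the TPM scale limma called 2 higher and 8 lower, beside 15.0% and 51.7% of all genes tested. Ttll12, an atypical member of the tubulin tyrosine ligase-like family, rose with a log2 fold change of 0.52, and Sirt2, a tubulin deacetylase with other substrates, with 0.49. Ttll4, which adds glutamate to the tails, fell by 0.89 on the log2 scale (5.90 and 6.07 FPKM in DMSO, 2.88 and 3.21 in risperidone). Svbp, the partner that vasohibins need to remove the terminal tyrosine of alpha tubulin, had a log2 fold change of -0.80 (SE 0.202, edgeR adjusted p = 0.00491). Its libraries held 14.37 and 14.87 FPKM in DMSO and 9.46 and 6.10 in risperidone.

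Of 19 tested genes for microtubule stabilisers and plus-end proteins, 12 rose, 4 fell and 3 did not pass the test, with a median of 0.22. On the TPM scale 3 were called higher and 5 lower. Map6, which stabilises microtubules against cold, had 22.55 and 22.31 FPKM in DMSO and 35.82 and 32.91 in risperidone (log2 fold change 0.73, SE 0.0656, edgeR adjusted p = 3.85e-06). Tpx2, a spindle assembly factor, had a log2 fold change of 0.46. Map7d2, a microtubule protein that recruits kinesin-1, had 160 and 156 counts in DMSO and 6 and 10 in risperidone (log2 fold change -4.19, SE 0.255, edgeR adjusted p = 2.44e-07). Dclk1, a doublecortin-like kinase that binds microtubules, had a log2 fold change of -0.69.

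Of 7 tested genes for destabilisers and severing proteins, none rose, 3 fell and 4 did not pass the test, with a median of -0.10. At an unadjusted p under 0.05, 0 of the 7 were higher in edgeR, DESeq2 or limma on FPKM. Kif2a, a kinesin that removes subunits from microtubule ends, was called higher with length offsets and without risperidone replicate 2 (log2 fold change 0.17 in both), and Kif18a, below the filter, was called higher with no filter. Stmn1, which binds tubulin dimers and keeps them from assembling, had 3.96 and 4.42 FPKM in DMSO and 2.19 and 1.94 in risperidone (log2 fold change -0.92, SE 0.231, edgeR adjusted p = 0.00499). Katnbl1, a regulator of the severing enzyme katanin, had a log2 fold change of -0.31, and Spast, the severing enzyme spastin, also fell. Among 19 nucleation genes, 5 rose, 2 fell and 12 did not pass the test, with a median of 0.07. DESeq2 called 3 of these genes higher and 1 lower. Haus8 (log2 fold change 0.54) and Haus6 (0.52), subunits of the augmin complex, were the largest rises. Pcnt, the centrosomal scaffold pericentrin (-0.51), and Haus3 (-0.34) fell. On the TPM scale limma called none of the nucleation genes higher (2 at an unadjusted p under 0.05) and 7 lower.

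Of 31 tested kinesin and dynein motor genes, 13 rose, 7 fell and 11 did not pass the test, with a median of 0.11, against 3 higher and 12 lower on the TPM scale. The dynactin subunits Dctn6 and Dctn4 had log2 fold changes of 0.44 and 0.41. Dynll1, a dynein light chain with many other partners, had 72.19 and 76.94 FPKM in DMSO and 35.42 and 35.08 in risperidone (log2 fold change -0.98, SE 0.0527, edgeR adjusted p = 1.16e-07). Its paralog Dynll2 had a log2 fold change of -0.45. The background for the counts of every list is 32.1% of all genes tested higher and 32.2% lower in edgeR, and 15.0% higher and 51.7% lower for the TPM counts.

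**Figure D4:**
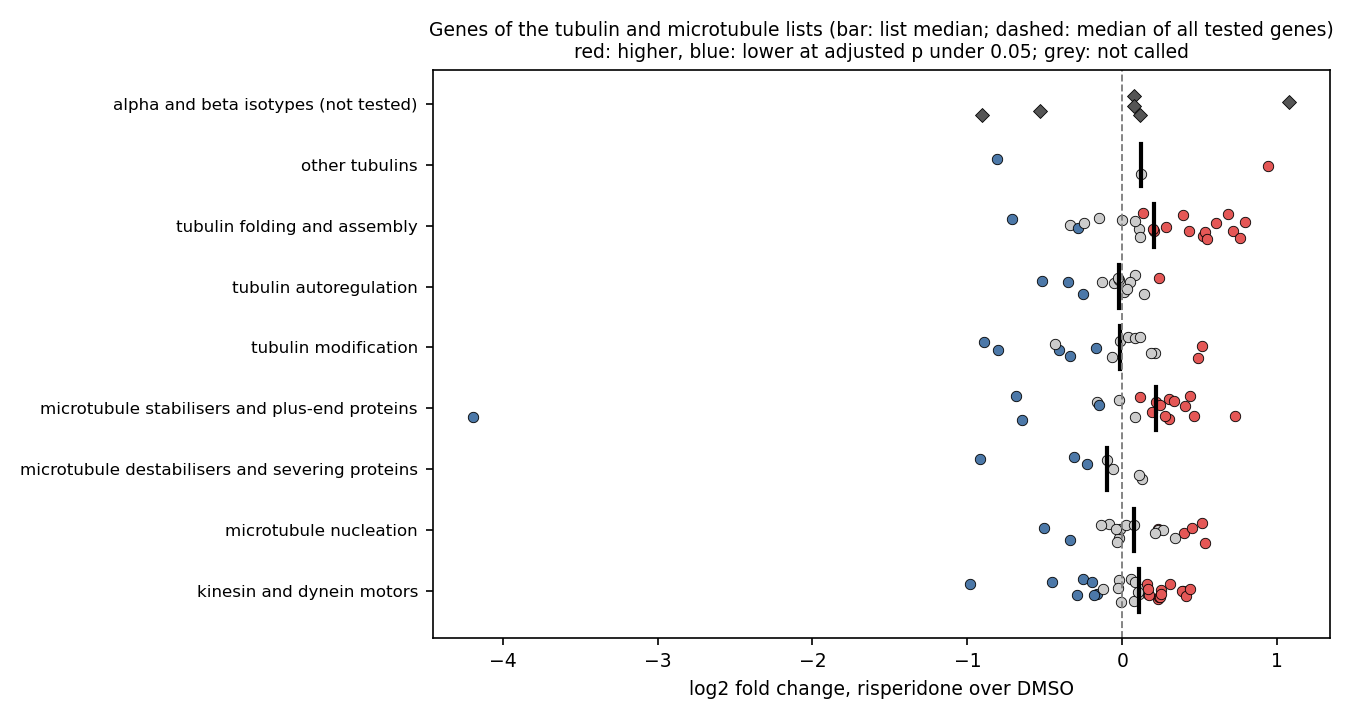
Log2 fold change (risperidone over DMSO) of each tested gene of the tubulin and microtubule lists, with the 6 isotypes as diamonds in the top row; red and blue mark genes called higher and lower by edgeR, bars the median of a list and the dashed line the median of all genes tested. Rises outnumbered falls most among folding and assembly genes (14 against 2) on this scale.

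Markers of proliferation and of cell type were set beside the tubulin values. Of 12 proliferation markers 9 were tested, and 4 rose, 1 fell and 4 did not pass the test, with a median log2 fold change of 0.44 (2 higher and 2 lower on the TPM scale). DESeq2 called 3 higher and 0 lower (0 lower at an unadjusted p under 0.05), so the fall of Pcna did not pass there. Their summed FPKM was 76.3 and 78.2 in DMSO and 72.6 and 74.0 in risperidone, a direction set by Pcna, without which it was 24 and 23.9 in DMSO and 29.8 and 29.8 in risperidone. Of 7 tested preadipocyte and fibroblast markers, 4 rose, 1 (Col3a1) fell and 2 (Vim and Pdgfra) did not pass the test, with 4 higher and 3 lower on the TPM scale. Without Col1a1 their summed FPKM was 802 and 794 in DMSO and 805 and 814 in risperidone. Of 5 tested adipocyte markers, 1 rose and 3 fell, with 0 higher and 3 lower on the TPM scale (0 higher there at an unadjusted p under 0.05). Their part in the tubulin values was not tested. The neuron markers Dcx, Syp, Syt1, Gap43, Elavl3 and Ina were below 1 FPKM in every library, beside Tubb3 at 2 counts or fewer.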

How the data were processed

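The deposited table gave, for each gene and library, an estimated (expected) count, an FPKM and a TPM made by the authors from reads cleaned of adaptors, poly-N and low-quality sequence. The submitters' processing notes name Bowtie2, RSEM and DESeq2 and the build GRCm38.p6, without versions. The dose, time, vehicle and pooling are from the methods of the study. FPKM as deposited are scaled to transcript length and library depth, and TPM as deposited sum to 1e+06 in each library. The authors' expected counts were rounded and fitted with edgeR 4.0.16 (quasi-likelihood F-test, TMM, two-sided) in R 4.3.3, keeping genes whose FPKM averaged 1 or more across all 4 libraries, with Benjamini-Hochberg adjustment over 10243 genes and a threshold of 0.05. Reported log2 fold changes are on this scale, and for the 6 isotypes tested lie about 0.1 above the log2 ratio of FPKM. The biological coefficient of variation was 0.0468, and with 2 pooled libraries per treatment, p-values measure only the spread between these libraries. Alternatives used DESeq2 1.42.0, limma 3.58.1 on log2(FPKM + 1), log2(FPKM + 0.1) or log2(TPM + 1), RLE factors, length offsets, other filters, a replicate block and each library left out. The main fit and several alternatives were also run on simulated counts in which 200 of 10243 genes changed. Far more genes were called in the data, so the simulation does not check the normalization for them. Shares and totals used FPKM, with no test.

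The members and gene lists were chosen with earlier results of these data known. Named besides the members were all other tubulins, and from each list up to 2 of the largest rises and 2 of the largest falls past the threshold without overlap between treatments. Cnot1, Spast, Kif2a, Kif18a and Ttc5 were named after their values were seen. Gene models and transcripts were from the GENCODE M21 annotation of GRCm38 and promoters from RefSeq, which matched 10 tubulins. Tubb2b and Tubb6 had no promoter entry. The coding tails of the alpha isotypes are not reported here.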

Additional observations from a re-analysis of the deposited data

How the results depend on the processing

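Tubb5 was higher and Tubb4b and Tuba1a were lower under every alternative. Leaving out each library in turn gave log2 fold changes of 0.99 to 1.16, -0.94 to -0.87 and -0.57 to -0.48, and 2666 to 3310 genes higher and 2725 to 3350 lower overall. Same-numbered libraries did not deviate together over the genes tested (correlation of deviations -0.07). This single correlation cannot decide whether the numbers pair libraries, and the main fit used no pairing. With the replicate number as a block, 3292 genes were higher and 3321 lower, the log2 fold changes were 1.07, -0.90 and -0.53, and no count of a list moved by over 1.5 times. Shares of read counts, not divided by length, differed by 14.4 points for Tubb5 and -11.3 for Tubb4b. With summed TPM the log2 ratio was -0.29 for the alpha total (FPKM -0.15) and 0.45 for the beta total (FPKM 0.60). For both together it was -0.054, against 0.09 in FPKM, a change of sign. The median of all genes tested was -0.22 on the TPM scale, so these values share a shift of the scale.

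With limma on TPM, 1536 genes were higher (15.0%) and 5292 lower (51.7%), with the median of all genes at -0.22. On that scale 7 folding, 10 autoregulation, 8 modification, 5 destabiliser, 7 nucleation and 12 motor genes were lower, and 0 autoregulation, 3 stabiliser, 0 nucleation and 3 motor genes were higher. With limma on FPKM, autoregulation had 0 higher (1 at an unadjusted p under 0.05) and 6 lower and motors had 8 higher. Length offsets gave 2 autoregulation, 4 modification and 1 destabiliser genes higher. At a mean of at least 5 FPKM, 0 other tubulins were lower, since Tubd1 was no longer tested, 3 modification genes were lower, and nucleation had 2 higher and 1 lower. DESeq2 gave 3 modification genes lower, and 3 nucleation genes higher and 1 lower. With no filter, 1 destabiliser was higher and 1 nucleation gene lower. The causes were not tested. Leaving out each library gave 1 to 2 genes higher for other tubulins, 1 to 2 for autoregulation, 0 to 1 for destabilisers and 3 to 6 for nucleation, and 3 to 5 genes lower for modification and 1 to 2 for nucleation. The modification count of 3 lower came without either control replicate or risperidone replicate 1, the nucleation count of 3 higher without control replicate 2 and that of 1 lower without either control replicate or risperidone replicate 2, and the autoregulation count of 2 higher without risperidone replicate 1. Without risperidone replicate 2, the library with kidney transcripts, 2 other tubulins and 1 destabiliser were higher. The 4 rare isotypes, with at most 46.5 counts, are limited by depth.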
